A study of Mus musculus with 30 samples.

Results

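The core circadian clock of the liver was followed through 10 genes, namely Arntl, Clock, Npas2, Per1, Per2, Per3, Cry1, Cry2, Nr1d1 and Nr1d2, chosen by name among 22180 genes that have an array probe set of their own. A gene was read from the probe set that carries its symbol and no other, and 9 of the 10 genes had exactly 1 such probe set. Cry2 also had a probe set shared with D930015M05Rik, which was not read. Per2, which encodes a repressor of the clock, had only a probe set shared with the transcript 9830107B12Rik, so that its signal could not be assigned and it stayed out of every count.

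Liver RNA of 30 male C57Bl/6NCr mice in 8 groups was measured, 1 array per mouse. Offspring of normally nourished dams (NN) were compared with offspring of dams that received 40% fewer calories in late pregnancy (UN), and all pups were nursed by NN dams. In cohort 1, 3 NN and 3 UN mice were killed at 9 weeks on regular chow, and in cohort 2, 4 of each were killed at 17 weeks, when a high-fat diet (HFD) had been fed for 8 weeks. Cohort 3 stayed on HFD until 22 weeks, and its NN and UN mice were each split into 4 that received vehicle (NN-Veh, UN-Veh) and 4 that received the secondary bile acid tauroursodeoxycholic acid (TUDCA) by mouth for the last 5 weeks (NN-TU, UN-TU). The hour at which each liver was taken is not given in the sources used here. Values are log2 signals, so that a difference of 1 means a doubling, and errors are SDs over mice. Whole liver was sampled, in which fewer cells of a type and less RNA per cell cannot be told apart.

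The clock is a feedback loop in which Arntl (also called Bmal1), paired with Clock or its relative Npas2, switches on the Per and Cry genes through E-box sequences, and the PER and CRY proteins then block that pair. The nuclear receptors Nr1d1 and Nr1d2 (REV-ERB alpha and beta) are switched on by the same pair and repress Arntl through ROR response elements (ROREs), while the D-box factors Dbp, Tef, Hlf and Nfil3 form a further loop. In the liver of mice kept in a light and dark cycle, Arntl, Clock and Npas2 peak around the start of the light phase, Nr1d1 peaks in the course of the light phase, and Nr1d2 and Per3 peak later in it, so that the groups run nearly in antiphase.

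The elements by which these genes are joined were looked for in the promoter table of RefSeq (GRCm38.p6), which holds 13 windows for the 9 measured genes, each of 250 bases before and 50 bases after a transcription start. On both strands the E-box CACGTG, the D-boxes TTATGTAA and TTACGTAA and the RORE consensus were searched, and 4 genes held a match in a window. Of the 32851 windows of the table, 7.15% held such an E-box, 1.056% a D-box and 0.384% the RORE consensus. Counted per gene, the shares were 8.093%, 1.232% and 0.459% of the 27025 genes of the table. No 2 matches overlapped within the windows of the clock genes. The following stretches are shown because Arntl and Per3 carried the largest opposite differences between UN-TU and UN-Veh, and Per1 and Cry1 are targets of the E-box arm. They are written 5′ to 3′ with the matched element in capitals.
Arntl, chr7:113207527-113207556, plus strand, RORE consensus in 1 of its 2 windows, from base 27 with the start as base 1, in transcribed sequence within the gene:
Arntl: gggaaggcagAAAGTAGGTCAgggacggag
Per3, chr4:151044666-151044915, minus strand, the 250 bases before the start, with 2 D-boxes that begin at -205 and -158 relative to it:
Per3: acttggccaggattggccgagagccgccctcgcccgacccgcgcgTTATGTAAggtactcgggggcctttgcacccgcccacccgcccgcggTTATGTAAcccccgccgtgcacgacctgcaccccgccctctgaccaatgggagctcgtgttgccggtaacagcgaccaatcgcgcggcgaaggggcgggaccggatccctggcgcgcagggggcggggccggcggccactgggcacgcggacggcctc
Per1, chr11:69098699-69098948, plus strand, the 250 bases before the start of 1 of its 2 windows, with an E-box that begins at -166 relative to it:
Per1: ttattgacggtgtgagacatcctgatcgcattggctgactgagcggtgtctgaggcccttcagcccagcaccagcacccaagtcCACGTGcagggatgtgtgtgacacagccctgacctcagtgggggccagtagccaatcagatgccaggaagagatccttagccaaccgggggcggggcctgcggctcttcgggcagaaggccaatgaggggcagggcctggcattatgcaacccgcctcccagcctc
Cry1, chr10:85185055-85185304, minus strand, the 250 bases before the start, with an E-box that begins at -60 relative to it:
Cry1: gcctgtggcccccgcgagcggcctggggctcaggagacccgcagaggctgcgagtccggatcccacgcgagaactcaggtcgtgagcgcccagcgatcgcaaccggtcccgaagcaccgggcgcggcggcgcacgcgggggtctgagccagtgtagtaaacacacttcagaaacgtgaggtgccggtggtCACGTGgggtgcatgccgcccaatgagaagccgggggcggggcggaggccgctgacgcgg
The windows of Clock, Npas2, Cry2, Nr1d1 and Nr1d2 held none of these letters. A match describes the sequence and was not tested for binding or for an effect on the signals below.

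Before the results, 1 array needs to be set apart. In UN replicate 14 of 17 weeks the Pearson r with the remaining arrays had a median of 0.837. The same median was 0.958 in UN replicate 13 of that group and 0.977 to 0.985 in all other arrays. The mean log2 signal of 6 hepatocyte markers was 8.94 in replicate 14, whereas the lowest value of the groups outside UN at 17 weeks was 10.57. For the clock genes, results that rest on this array are given with and without it. Counts of accessory genes and ranges of cell type markers that involve UN at 17 weeks are given with it only.

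Arntl, the partner that the whole loop needs, varied between groups and between mice of 1 group. At 9 weeks its log2 signal was 8.01, 4.96 and 7.02 in the NN mice and 7.38, 7.18 and 5.10 in the UN mice, so that each group held a mouse with a low signal and the groups overlapped. At 17 weeks it was 6.20, 4.96, 5.13 and 6.32 in NN and 5.30, 5.15, 5.57 and 4.91 in UN. At 22 weeks it was 6.64, 6.5, 6.78 and 7.01 in NN-Veh, 7.32, 7.53, 6.83 and 5.98 in NN-TU, 6.53, 6.17, 6.64 and 5.60 in UN-Veh, and 8.0, 7.19, 6.89 and 7.25 in UN-TU. The UN-TU mice were all above the UN-Veh mice, and the 17-week mice were low in both nutrition groups. In order of the means, UN at 17 weeks was lowest at 5.23 ± 0.28 (n = 4), followed by NN at 17 weeks at 5.65 ± 0.70 (n = 4), UN-Veh at 6.23 ± 0.47 (n = 4), UN at 9 weeks at 6.55 ± 1.26 (n = 3), NN at 9 weeks at 6.66 ± 1.56 (n = 3), NN-Veh at 6.74 ± 0.22 (n = 4), NN-TU at 6.92 ± 0.69 (n = 4) and UN-TU at 7.33 ± 0.47 (n = 4). Neighbours in this order overlapped, and the arrays spanned a range of 3.10.

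Clock, the DNA-binding partner of Arntl, and Npas2, which can take the place of Clock, followed a similar order of groups. The Clock signal was lowest in UN at 17 weeks (7.91 ± 1.21, n = 4) and highest in UN at 9 weeks (9.24 ± 0.21, n = 3). In UN at 17 weeks the 4 mice had 8.65, 8.57, 8.31 and 6.11, of which the last is replicate 14, and without that array the span of Clock over arrays narrowed from 3.52 to 1.31 and the mean of the group, still the lowest, was 8.51. Npas2 was lowest in UN at 17 weeks (3.29 ± 0.18, n = 4) and highest in UN-TU (4.94 ± 0.62, n = 4). Its signal was low, with a mean over the arrays of 4.24, at the 45.7th percentile of the gene-named probe sets. At 17 weeks all its values were below the lowest array median, 4.11.

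Among the repressors, Per3 ran the other way. Per3, a PER family protein that is dispensable for the central rhythm in mice, was highest in NN at 17 weeks (6.49 ± 0.54, n = 4) and lowest in UN-TU (5.09 ± 0.38, n = 4). Per1, a repressor that is also induced by glucocorticoid and feeding signals, was highest in NN at 17 weeks (7.52 ± 0.86, n = 4) and lowest in UN-Veh (6.22 ± 0.45, n = 4). Cry1, the stronger of the CRY repressors in mice, was highest in UN-TU (5.85 ± 0.36, n = 4), and Cry2, its relative, was highest in NN at 17 weeks (6.62 ± 0.15, n = 4). The group means of Cry1 and Cry2 spanned only 0.62 and 0.48 on the log2 scale, and that of Cry1 0.46 without replicate 14. The nuclear receptors were lowest in UN at 17 weeks, at 7.75 ± 1.14 for Nr1d1 and 8.25 ± 1.0 for Nr1d2 (n = 4 each), where replicate 14 had 6.05 and 6.80. This place rested on that array, for without it the means were 8.32 and 8.73 (n = 3 each), and the lowest group was NN at 9 weeks for Nr1d1 (8.14 ± 0.93, n = 3) and UN at 9 weeks for Nr1d2 (8.40 ± 0.47, n = 3). Their highest means were in NN-Veh for Nr1d1 (8.74 ± 0.09, n = 4) and in NN at 17 weeks for Nr1d2 (8.89 ± 0.16, n = 4).

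**Figure D1:**
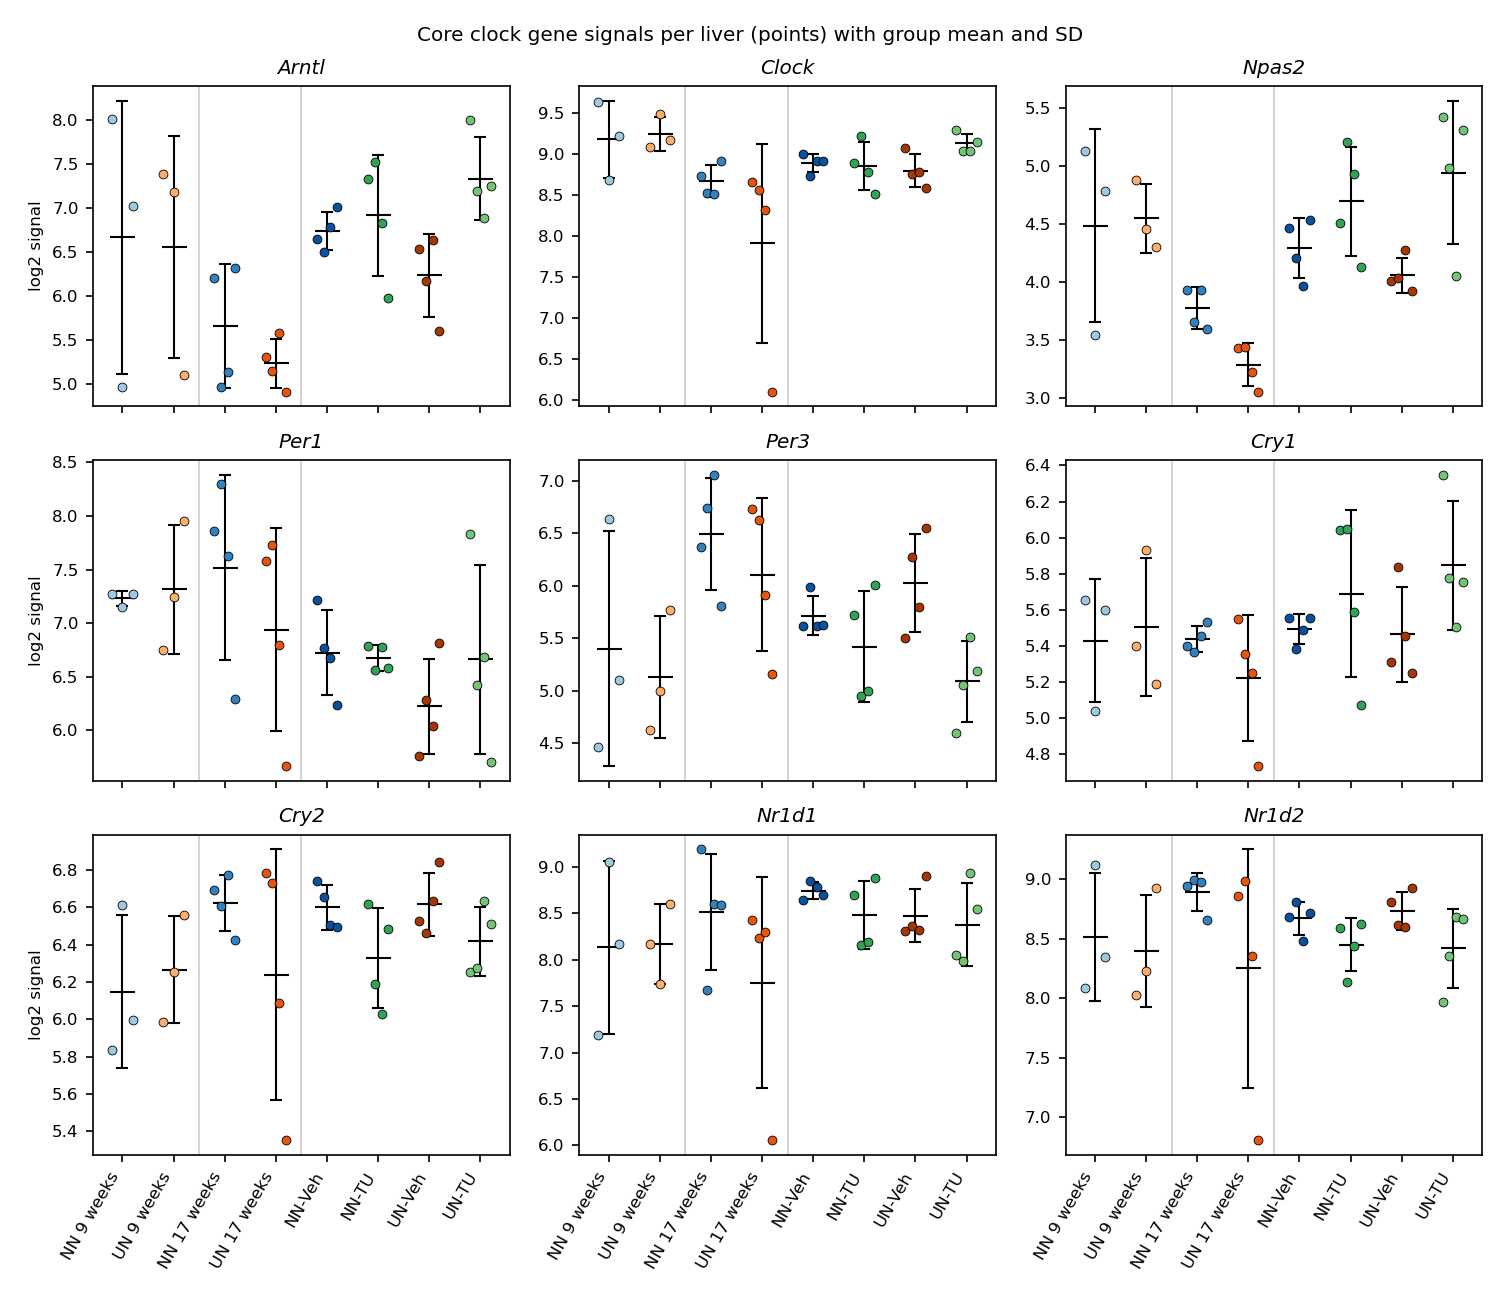
Log2 signal (vertical axis) of the 9 measured clock genes in each of the 30 livers (points) by group (horizontal axis), with the group mean and SD (bars). Grey lines part the cohorts of 9, 17 and 22 weeks. Arntl lies between 6.89 and 8.0 in UN-TU and between 4.91 and 5.57 in UN at 17 weeks, and in UN at 17 weeks 1 array lies far below the others for Clock, Nr1d1 and Nr1d2.

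The first question was whether undernutrition in utero moved the clock before and after HFD. At 9 weeks, 0 of the 9 genes passed an adjusted p under 0.05 in limma's moderated test, as did 0% of the 25341 gene-named probe sets, and 0 of 9 passed an unadjusted p under 0.05, against 3.61% of the probe sets. The methods' test, an analysis of variance with no moderation, also gave 0 of 9 by both rules. Per3 had the lowest p, with 4.46, 6.64 and 5.10 in NN and 4.63, 4.99 and 5.77 in UN, and Cry2 came next with 5.84, 6.61 and 6.00 against 5.99, 6.26 and 6.56. In both genes the groups overlapped. The spread between mice was wide here, and the difference of Arntl (UN minus NN) was -0.11 with a 95% interval from -1.79 to 1.57, which holds a doubling in either direction. Nr1d1 differed by 0.03 with an interval from -0.85 to 0.91. The means of 3 skeletal muscle and pancreas markers did not overlap, at 4.95 to 5.07 in UN and 4.69 to 4.83 in NN. Singly, Acta1 (4.72 to 4.96 against 4.29 to 4.71) and Ctrb1 (4.65 to 4.95 against 4.38 to 4.54) did not overlap, whereas Ckm did. The part of these markers in the clock differences was not tested. Of 16 accessory clock genes, described further on, 0 passed either threshold at 9 weeks, against the same 0% and 3.61% of the probe sets. The same held at 17 weeks with replicate 14 included, against 0% and 3%.

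At 17 weeks, 0 of the 9 genes passed the adjusted threshold in limma, against 0% of the probe sets, and 1 passed the unadjusted one, against 3% of the probe sets. That gene was Npas2. Its log2 signal was 3.93, 3.65, 3.93 and 3.59 in the NN mice and 3.43, 3.43, 3.23 and 3.05 in the UN mice. The groups did not overlap, and UN was lower by -0.49 (SE 0.15, adjusted p = 0.722 in limma). All these Npas2 signals were low, below the lowest array median of 4.11. The next genes by p were Nr1d2 and Clock. Nr1d2 had 8.94, 8.99, 8.98 and 8.66 in NN and 8.86, 8.99, 8.36 and 6.80 in UN, a difference of -0.64 (SE 0.44, adjusted p = 0.722 in limma). Clock had 8.73, 8.52, 8.52 and 8.91 in NN, and its difference was -0.76 (SE 0.52, adjusted p = 0.722 in limma). All 9 differences were below 0, with a median of -0.49, while the median over all probe sets was -0.05. Without replicate 14 the differences of Clock and Nr1d2 shrank to -0.16 each and that of Nr1d1 from -0.76 to -0.19, whereas that of Npas2 was -0.41 (adjusted p = 0.822 in limma), and the median of all probe sets was 0.01. The median of the 9 clock genes was then -0.16, with Per1 at -0.15, Per3 at -0.07 and Cry2 at -0.09. Other cell type markers also spread widely in UN at 17 weeks, replicate 14 included. The means of 4 Kupffer cell markers ran from 5.96 to 8.76, against 7.18 to 7.73 in NN, those of 3 endothelial markers from 5.97 to 7.80, against 7.25 to 7.69, those of 3 stellate cell markers from 5.57 to 7.34, against 7.19 to 7.37, and those of 5 lymphocyte markers from 4.01 to 4.83, against 3.98 to 4.15. Their part in the clock differences was not tested.

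At 22 weeks, UN-Veh was compared with NN-Veh, and 0 of the 9 genes passed the adjusted threshold in limma, against 0.418% of the probe sets. At an unadjusted p under 0.05 the count was again 0, against 9.31% of the probe sets, and the methods' test gave 0 as well. Arntl was 6.23 ± 0.47 in UN-Veh against 6.74 ± 0.22 in NN-Veh, a difference of -0.50 (SE 0.28) with a 95% interval from -1.08 to 0.08. Per1 also differed by -0.50 (SE 0.30), from -1.13 to 0.13, and Per3 by 0.32 (SE 0.24), from -0.17 to 0.81. Per1 had 5.76, 6.28, 6.04 and 6.81 in UN-Veh and 7.21, 6.77, 6.68 and 6.24 in NN-Veh, and Nr1d1 had 8.32, 8.36, 8.32 and 8.90 against 8.64, 8.85, 8.78 and 8.70. Both genes overlapped between the groups, for Nr1d1 through 1 UN-Veh mouse alone, replicate 26. The means of 3 endothelial markers did not overlap, at 7.84 to 8.08 in UN-Veh and 7.64 to 7.77 in NN-Veh. Singly, Clec4g did not overlap, at 8.88 to 9.07 against 8.34 to 8.72, whereas Stab2 and Pecam1 did. The part of these markers was not tested.

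The second question was whether TUDCA moved the clock under HFD. In UN offspring, Arntl, Npas2 and Clock had higher signals with TUDCA and Per3 and Nr1d2 lower ones at an unadjusted p under 0.05, which makes 5 of 9 genes, against 10.6% of the probe sets. None of them, 0 of 9, passed the adjusted threshold in limma, against 0.406% of the probe sets. Arntl was 7.33 ± 0.47 in UN-TU and 6.23 ± 0.47 in UN-Veh with no overlap, a difference of 1.1 (SE 0.28, 95% interval 0.52 to 1.68, adjusted p = 0.0901 in limma) or 2.14-fold. Per3 had 4.59, 5.05, 5.52 and 5.19 in UN-TU and 5.50, 6.27, 5.80 and 6.55 in UN-Veh. Only the highest treated mouse reached the range of the untreated ones, and the difference was -0.94 (SE 0.24, 95% interval -1.44 to -0.45, adjusted p = 0.084 in limma). Npas2 had 5.42, 4.98, 4.05 and 5.31 in UN-TU and 4.0, 4.03, 4.27 and 3.92 in UN-Veh, where 1 treated mouse, replicate 29, stayed at the untreated level. Its difference was 0.89 (SE 0.24, adjusted p = 0.122 in limma), and without that mouse it was 1.18 (adjusted p = 0.00893 in limma, the lowest over its alternatives, which reached 0.792).

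The remaining members differed by less. Clock was higher by 0.33 (SE 0.13, adjusted p = 0.336 in limma) with 9.29, 9.04, 9.03 and 9.15 in UN-TU against 9.07, 8.76, 8.78 and 8.58 in UN-Veh. Nr1d2 differed by -0.31 (SE 0.14, adjusted p = 0.431 in limma), or by -0.17 without UN-TU replicate 27, and Nr1d1 differed by -0.09 with an interval from -0.49 to 0.30. Cry1 differed by 0.38 (SE 0.19), Per1 by 0.44 (SE 0.30) and Cry2 by -0.20 (SE 0.13), all with intervals that held 0. The probe set that Per2 shares with 9830107B12Rik differed by -0.61 (SE 0.18, adjusted p = 0.151 in limma). The median absolute difference of the 9 genes was 0.38, against 0.09 over all probe sets.

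In NN offspring the same treatment gave 0 of 9 genes at the adjusted threshold in limma, against 1.35% of the probe sets, and 1 of 9 at the unadjusted one, against 15.7%. The 1 gene was Cry2, with 6.62, 6.19, 6.03 and 6.48 in NN-TU and 6.74, 6.66, 6.51 and 6.49 in NN-Veh, a difference of -0.27 (SE 0.13, adjusted p = 0.297 in limma) with overlapping groups, which was -0.17 without NN-TU replicate 21. The means of 4 Kupffer cell markers did not overlap between these groups, at 7.24 to 7.87 in NN-TU and 7.91 to 8.39 in NN-Veh. Nor did those of 3 cholangiocyte markers, at 3.90 to 4.14 and 3.72 to 3.88, which lay near or below the array medians. Singly, only Adgre1 among the former (6.29 to 6.85 against 7.16 to 7.67) and Krt7 among the latter (4.11 to 4.31 against 3.66 to 4.03) did not overlap. The part of these markers was not tested. Npas2 had 4.5, 5.2, 4.93 and 4.13 in NN-TU and 4.46, 4.21, 3.96 and 4.53 in NN-Veh, a difference of 0.40 (SE 0.24), and Nr1d2 differed by -0.23 (SE 0.14). Arntl differed by 0.18 (SE 0.28) and Per3 by -0.29 (SE 0.24). The difference between the responses of UN and NN was tested as an interaction, which gave 0 of 9 genes, against 0% of the probe sets, at the adjusted threshold in limma and 1 of 9, against 11.9%, at the unadjusted one. For Arntl the response in UN exceeded that in NN by 0.92 (SE 0.39, adjusted p = 0.356 in limma), or by 0.60 without NN-TU replicate 22, and for Per3 it was lower by -0.65 (SE 0.33, adjusted p = 0.458 in limma). By the interaction test, neither response was shown to differ between UN and NN after adjustment.

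With TUDCA in both groups, UN-TU against NN-TU gave 0 of 9 genes at the adjusted threshold in limma, against 0.474% of the probe sets, and 1 of 9 at the unadjusted one, against 17.1%. That gene was Clock, higher in UN-TU by 0.28 (SE 0.13, adjusted p = 0.267 in limma), with 8.89, 9.22, 8.78 and 8.52 in NN-TU. The difference was 0.16 without NN-TU replicate 22 and 0.13 after quantile normalization once more. Arntl differed by 0.42 (SE 0.28) and Per3, with 5.72, 4.95, 5.0 and 6.01 in NN-TU, by -0.33 (SE 0.24). These contrasts share samples with those above, since the UN-Veh mice stand both in the contrast with NN-Veh and in that with UN-TU. Set side by side, Arntl was -0.50 in the former and 1.1 in the latter, Per3 was 0.32 and -0.94, and Npas2 was -0.23 and 0.89. Hepatocyte marker means of 6 genes lay between 10.89 and 11.03 in UN-Veh and between 10.78 and 10.93 in UN-TU, and those of 4 Kupffer cell markers between 7.53 and 7.97 and between 7.89 and 8.06. The latter lay above the 7.24 to 7.87 of NN-TU with no overlap. Singly, only Adgre1 of these Kupffer cell markers did not overlap, at 6.99 to 7.20 in UN-TU and 6.29 to 6.85 in NN-TU. The part of these markers in the clock differences was not tested.

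Genes around the loop were followed through a list of 19 accessory clock genes, of which 16 were analysed here. In UN-TU against UN-Veh, 10 of the 16 passed the unadjusted threshold, 2 higher and 8 lower, against 10.6% of the probe sets, and 2 passed the adjusted one, against 0.406%. Wee1, a cell cycle kinase known as a target of the Clock and Arntl pair in mouse liver, had 4.17, 4.98, 5.14 and 5.23 in UN-TU and 5.93, 6.77, 6.29 and 7.10 in UN-Veh. The groups did not overlap, and Wee1 fell by 1.65 in log2 units (SE 0.26, adjusted p = 0.00657 in limma). Usp2, a rhythmic deubiquitinase that acts on clock proteins, had 5.21, 5.25, 5.07 and 4.76 in UN-TU and 6.05, 6.32, 5.94 and 7.10 in UN-Veh, and it fell by 1.28 (SE 0.27, adjusted p = 0.0357 in limma), again with no overlap. With the methods' test, without limma's moderation, both calls were lost once its p-values were adjusted (adjusted p = 0.118 for Wee1 and 0.199 for Usp2). Unadjusted, the p of that test was 0.000266 for Wee1 and 0.00229 for Usp2, at folds of 3.13 and 2.42. The methods' own rule was a p under 0.05 with a linear fold change of at least 2, and it names no adjustment. Over 24 alternatives Wee1 was called in 21 and Usp2 in 12 at the adjusted threshold.

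Other accessory genes differed without passing the adjusted threshold. Dbp, the D-box activator, differed by -1.18 (SE 0.34, adjusted p = 0.153 in limma) and Timeless by -0.40 (SE 0.11, adjusted p = 0.115 in limma). Nfil3, which represses through D-boxes, differed by 0.55 (SE 0.16, adjusted p = 0.174 in limma), and Bhlhe41, a repressor that competes for E-boxes, by -0.53 (SE 0.19, adjusted p = 0.267 in limma). Signals of Bhlhe41 were low, at 3.35 to 3.91 in UN-TU and 4.02 to 4.50 in UN-Veh, where array medians ran from 4.11 to 4.25. Those of Timeless were also low, at 4.09 to 4.50 and 4.50 to 4.74. Against the vehicle controls of normal nutrition, 0 of 16 accessory genes passed the adjusted threshold in UN-Veh, against 0.418% of the probe sets, and 6 the unadjusted one, against 9.31%, with 4 higher and 2 lower. Among them were Wee1 at 1.09 (SE 0.26, adjusted p = 0.0666 in limma), Nfil3 at -0.68 (SE 0.16, adjusted p = 0.0727 in limma) and Noct, a rhythmic phosphatase, at -1.21 (SE 0.33, adjusted p = 0.127 in limma). In NN-TU against NN-Veh, 0 of 16 passed the adjusted threshold, against 1.35% of the probe sets, and 3 the unadjusted one, near the 15.7% of the probe sets. All 3 were lower (Noct, Btrc and Tef), and Noct differed by -1.31 (SE 0.33, adjusted p = 0.053 in limma). In UN-TU against NN-TU the unadjusted count was 4 of 16, with 2 higher and 2 lower, against 17.1% of the probe sets, and for the interaction it was 7 of 16, with 3 above and 4 below 0, against 11.9%. In either, 0 passed the adjusted threshold, against 0.474% and 0% of the probe sets.

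**Figure D2:**
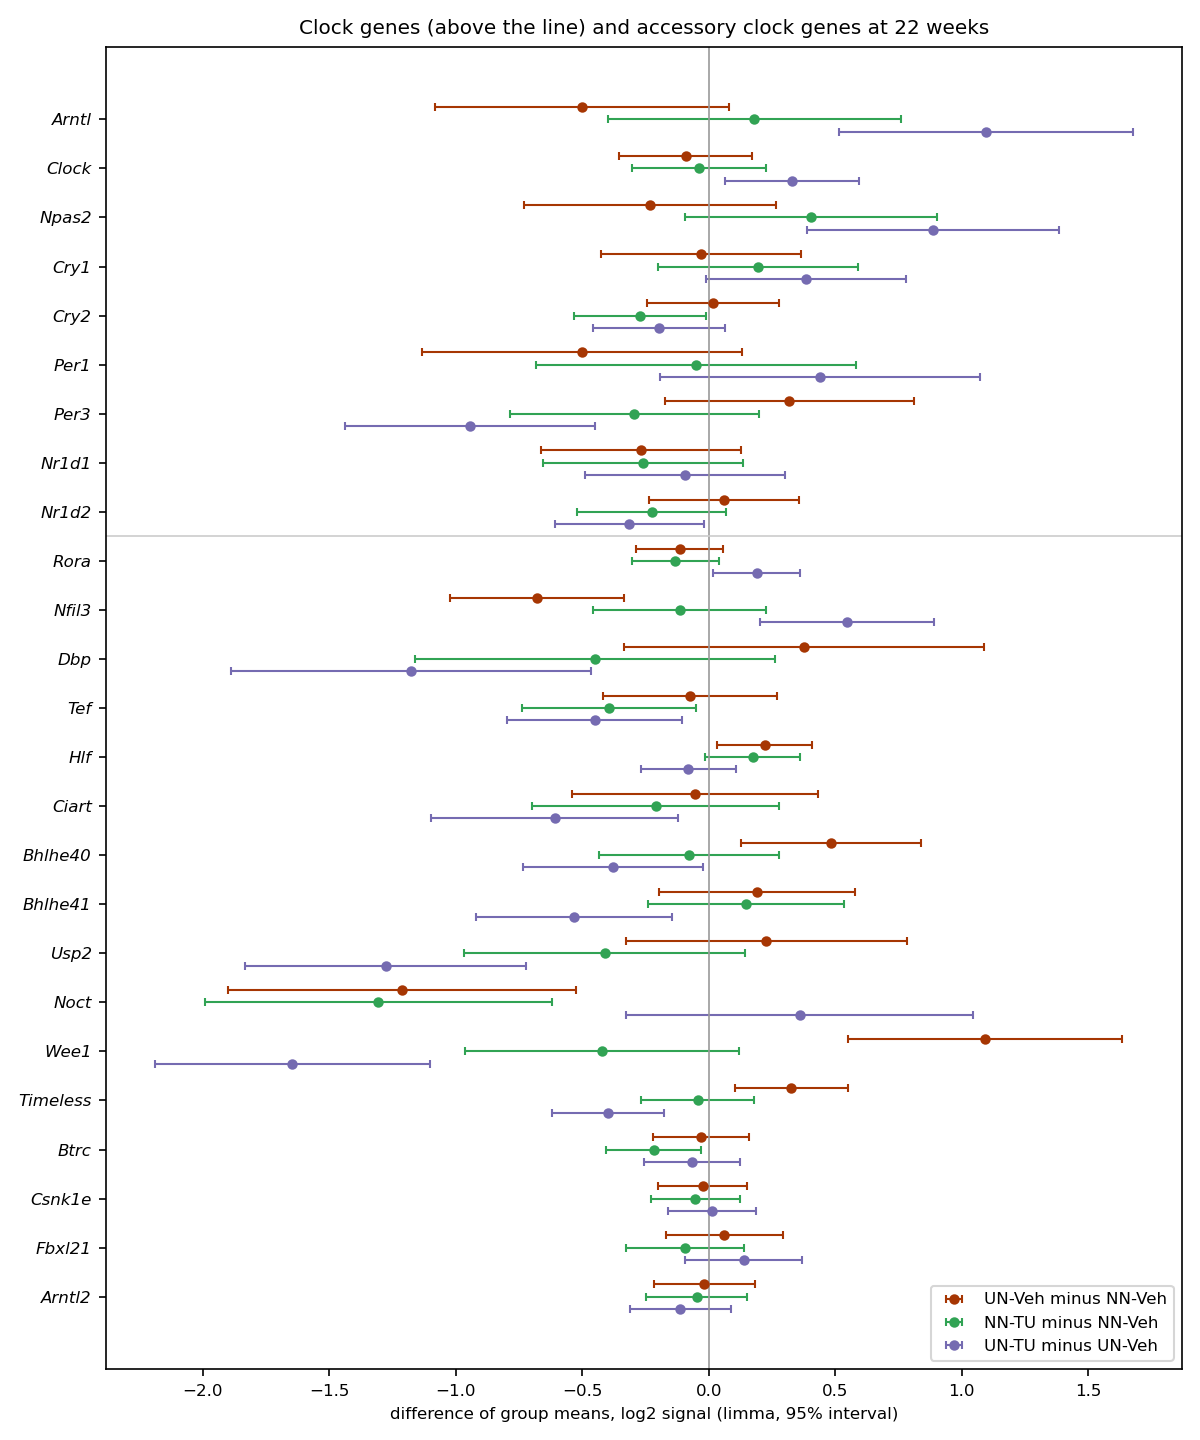
Difference of group means on the log2 scale (horizontal axis) with 95% intervals from limma for the 9 clock genes (above the line) and the 16 measured accessory genes (below it), in UN-Veh minus NN-Veh, NN-TU minus NN-Veh and UN-TU minus UN-Veh. In UN-TU minus UN-Veh, Arntl (1.1), Npas2 (0.89) and Clock (0.33) lie right of 0, and Per3 (-0.94), Wee1 (-1.65), Usp2 (-1.28) and Dbp (-1.18) lie left of it.

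The third comparison set 17 weeks against 9 weeks, where age, HFD and cohort change together and cannot be told apart. The hepatocyte marker means were lower at 17 weeks with no overlap. They were 10.84 to 10.97 against 11.29 to 11.37 in NN, and at most 10.94 against at least 11.36 in UN. Singly in NN, Cyp3a11 had 7.06 to 7.83 at 17 weeks against 9.74 to 9.98 at 9 weeks. Apoa1 had 11.63 to 11.70 against 11.76 to 11.89. Alb, Apob and Serpina1a overlapped, and Ttr was higher, at 12.57 to 12.65 against 12.52 to 12.56. In UN, replicate 14 included, Cyp3a11 had 7.07 to 7.87 against 10.07 to 10.21. Apoa1 (at most 11.64 against at least 11.71) and Serpina1a (at most 8.98 against at least 9.03) were also lower there, whereas Alb, Ttr and Apob overlapped. The means of 3 skeletal muscle and pancreas markers were lower in UN as well, at 4.54 to 4.84 against 4.95 to 5.07. Singly, Ckm and Ctrb1 did not overlap and Acta1 did. The part of these markers was not tested. In NN, 0 of 9 clock genes passed the adjusted threshold in limma, against 0.0158% of the probe sets, and 1 the unadjusted one, against 2.5%. That gene was Npas2 at -0.71 (SE 0.29, adjusted p = 1.0 in limma), with 5.12, 3.54 and 4.78 at 9 weeks. It was -0.39 without NN replicate 1 and -1.18 without NN replicate 2 of 9 weeks. Per3 differed by 1.09 (SE 0.51), with 4.46, 6.64 and 5.10 at 9 weeks and 6.37, 6.74, 7.06 and 5.81 at 17 weeks, and Arntl by -1.01 (SE 0.66). In both genes 1 NN mouse of 9 weeks, replicate 2, lay at the level of the 17-week mice.

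In UN, 0 of 9 passed the adjusted threshold in limma, against 0.122% of the probe sets, and 2 the unadjusted one, against 8.43%. Npas2 was 4.88, 4.46 and 4.30 at 9 weeks, all above the 17-week mice, and differed by -1.26 (SE 0.29, adjusted p = 0.236 in limma). Clock was 9.09, 9.48 and 9.16 at 9 weeks, also above every 17-week mouse, and differed by -1.33 (SE 0.48, adjusted p = 0.528 in limma), or by -0.73 (SE 0.20, adjusted p = 0.104 in limma) without replicate 14. Arntl differed by -1.32 (SE 0.66) and Per3 by 0.98 (SE 0.51), and without replicate 14 by -1.21 and 1.29. The sign of Per1, Cry2, Nr1d1 and Nr1d2 rested on that array, with Nr1d1 and Nr1d2 at -0.42 and -0.15 with it and at 0.15 and 0.34 without it. Of the 16 accessory genes, 0 passed the adjusted threshold in either nutrition group, against 0.0158% of the probe sets in NN and 0.122% in UN. At the unadjusted one 0 passed in NN, against 2.5% of the probe sets. In UN, with replicate 14 included, 1 passed, Wee1, higher at 17 weeks, against 8.43% of the probe sets.

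Mice of the same group differed in these genes more than in most others. At 9 weeks the SD within groups of all 9 genes lay at or above the 95.8th percentile of all probe sets, with Arntl at 1.42, the 99.99th percentile, and Per3 at 0.89. The median within-group SD was 0.51 for the clock genes and 0.15 for all probe sets. At 22 weeks the SDs lay between the 77.9th percentile (Cry2) and the 99.7th (Per1, SD 0.54), and Arntl stood at the 99.6th with 0.49. At 17 weeks without replicate 14 they were uneven, from the 15.4th percentile for Cry1 to the 99.5th for Per1 at 0.74.

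The question whether genes of opposite phase shifted oppositely was first put to the group means. In UN-TU against UN-Veh the differences of the 3 activators were above 0 and those of Per3, Nr1d1 and Nr1d2 below 0 (-0.94, -0.09 and -0.31). At 17 against 9 weeks in NN those of the activators were below 0 and those of Per3, Nr1d1 and Nr1d2 above 0 (1.09, 0.38 and 0.38), of which 1, Npas2, passed the unadjusted threshold. In UN-TU against NN-TU, which shares the UN-TU mice, the signs were also opposite, all 3 activators above 0 and all 3 others below. There Nr1d1 was at -0.10 (SE 0.19) and Nr1d2 at -0.03 (SE 0.14), both smaller than their errors. This was not so elsewhere. At 17 weeks all 6 were below 0 in UN against NN, and at 17 against 9 weeks in UN the activators were below 0 together with Nr1d1 and Nr1d2 (-0.42 and -0.15, above 0 without replicate 14). In UN-Veh against NN-Veh the activators and Nr1d1 (-0.27) were below 0 and Per3 and Nr1d2 above. The signs were mixed in UN against NN at 9 weeks and in the interaction. In NN-TU against NN-Veh, Per3, Nr1d1 and Nr1d2 were below 0 (-0.29, -0.26 and -0.23). Arntl and Npas2 were above 0 there (0.18 and 0.40), but Clock was at -0.04. To show this per liver, each gene was set against its own mean over the 30 arrays, and the deviations were averaged over Arntl, Clock and Npas2 (the morning arm) and over Nr1d1, Nr1d2 and Per3 (the day arm). These values describe the arrays and were not tested. The day arm minus the morning arm was lowest in NN replicate 1 of 9 weeks (-2.06) and highest in NN replicate 2 of the same group (1.49), so that both extremes of the 30 livers were chow-fed NN mice of 1 group. All 8 livers of 17 weeks were above 0, from 0.27 to 1.31, and the means were 0.89 in NN and 0.85 in UN.

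At 22 weeks the difference of the arms was -0.10, 0.36, 0.03 and -0.18 in NN-Veh, the narrowest group. It was -0.28, -1.28, -0.68 and 0.58 in NN-TU, -0.04, 0.38, -0.04 and 1.04 in UN-Veh, and -1.74, -0.98, 0.01 and -0.81 in UN-TU. The UN-TU livers lay below every UN-Veh liver with 1 exception, replicate 29. At 9 weeks it was -2.06, 1.49 and -0.85 in NN and -1.22, -1.1 and 0.53 in UN, with high and low livers in each group. In replicate 14 both arms were low, at -1.79 and -1.52, and 9 of 30 livers had both arms on the same side of 0.

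**Figure D3:**
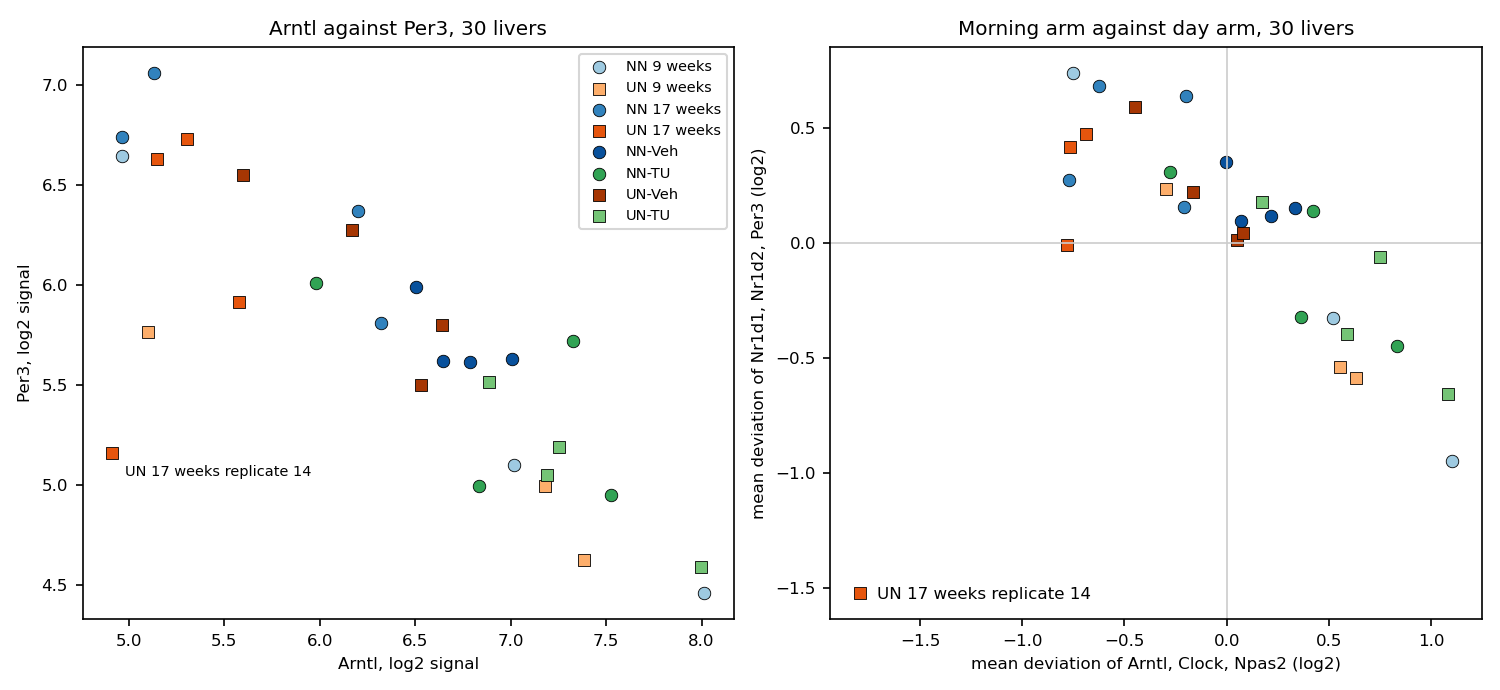
Left, Arntl (horizontal axis) against Per3 (vertical axis), both in log2 signal, in 30 livers; right, mean deviation of the morning arm (horizontal) against that of the day arm (vertical) on the log2 scale. Circles are NN and squares UN, coloured by group. The livers fall along a descending band, from NN replicate 1 of 9 weeks (Arntl 8.01, Per3 4.46) to livers with Arntl near 5, and UN replicate 14 of 17 weeks lies below it.

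The same question was then put to mice of 1 group, by correlating each gene with Arntl over the 30 arrays after the group means had been removed, with two-sided p-values from 100000 permutations within groups, adjusted over the 8 genes. Arntl rose with Cry1 (Pearson r = 0.67, adjusted p = 0.00115 by permutation; Spearman rho = 0.67, adjusted p = 0.00163), Npas2 (r = 0.69, adjusted p = 0.00202; rho = 0.58, adjusted p = 0.00995) and Clock (r = 0.44, adjusted p = 0.00115; rho = 0.66, adjusted p = 0.00163). It ran against Per3 (r = -0.77, adjusted p = 0.00115 by permutation; rho = -0.71, adjusted p = 0.00163), Nr1d2 (r = -0.45, adjusted p = 0.0246; rho = -0.62, adjusted p = 0.0044) and Cry2 (r = -0.43, adjusted p = 0.0386; rho = -0.51, adjusted p = 0.02). Nr1d1 (r = -0.32, adjusted p = 0.219; rho = -0.31, adjusted p = 0.203) and Per1 (r = -0.18, adjusted p = 0.291; rho = -0.21, adjusted p = 0.30) did not pass the permutation test. The unadjusted permutation p for these 8 values of r ran from 0.00026 for Per3 to 0.291 for Per1.

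Without the 2 arrays farthest from the median of Arntl, UN replicate 14 of 17 weeks and NN replicate 2 of 9 weeks, the r values were 0.62 for Cry1, 0.51 for Npas2, 0.63 for Clock, -0.82 for Per3, -0.77 for Nr1d2, -0.54 for Cry2, -0.33 for Nr1d1 and -0.36 for Per1, so that each direction held. Within the cohorts, r with Arntl was -0.97 at 9 weeks (6 arrays), -0.36 at 17 weeks (8 arrays) and -0.78 at 22 weeks (16 arrays) for Per3, and -0.82 at 17 weeks without replicate 14. For Npas2 it was 0.89, 0.03 and 0.66, so that the relation did not hold at 17 weeks. There Npas2 varied little and all its signals were below the array medians, and the part of this low signal was not tested. For Nr1d1 it was -0.90, 0.58 and -0.67, and the direction at 17 weeks was the opposite one. For Cry1 it was 0.81, 0.32 and 0.82, for Clock 0.77, 0.39 and 0.84, for Nr1d2 -0.99, 0.10 and -0.67, for Cry2 -0.96, 0.04 and -0.44, and for Per1 -0.51, -0.31 and 0.05. The values at 17 weeks moved without replicate 14, to -0.56 for Nr1d2, -0.41 for Cry2, -0.69 for Per1, 0.61 for Clock, 0.16 for Cry1, 0.70 for Nr1d1 and -0.18 for Npas2 (7 arrays). With replicate 14 left out, r over the other 29 arrays was -0.84 for Nr1d2, -0.67 for Cry2 and 0.75 for Clock.

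Genes of the day side rose and fell together, with r = 0.92 between Cry2 and Nr1d2, 0.85 between Cry2 and Per3 and 0.81 between Nr1d1 and Nr1d2, given here as a description. Part of this rested on replicate 14, which was low for nearly all members: without it these values were 0.85, 0.86 and 0.62, and the r of Clock with Nr1d2 turned from 0.53 to -0.52. Clock time, feeding and handling were not recorded per mouse in the sources used here, and their part in these shared deviations was not tested.

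**Figure D4:**
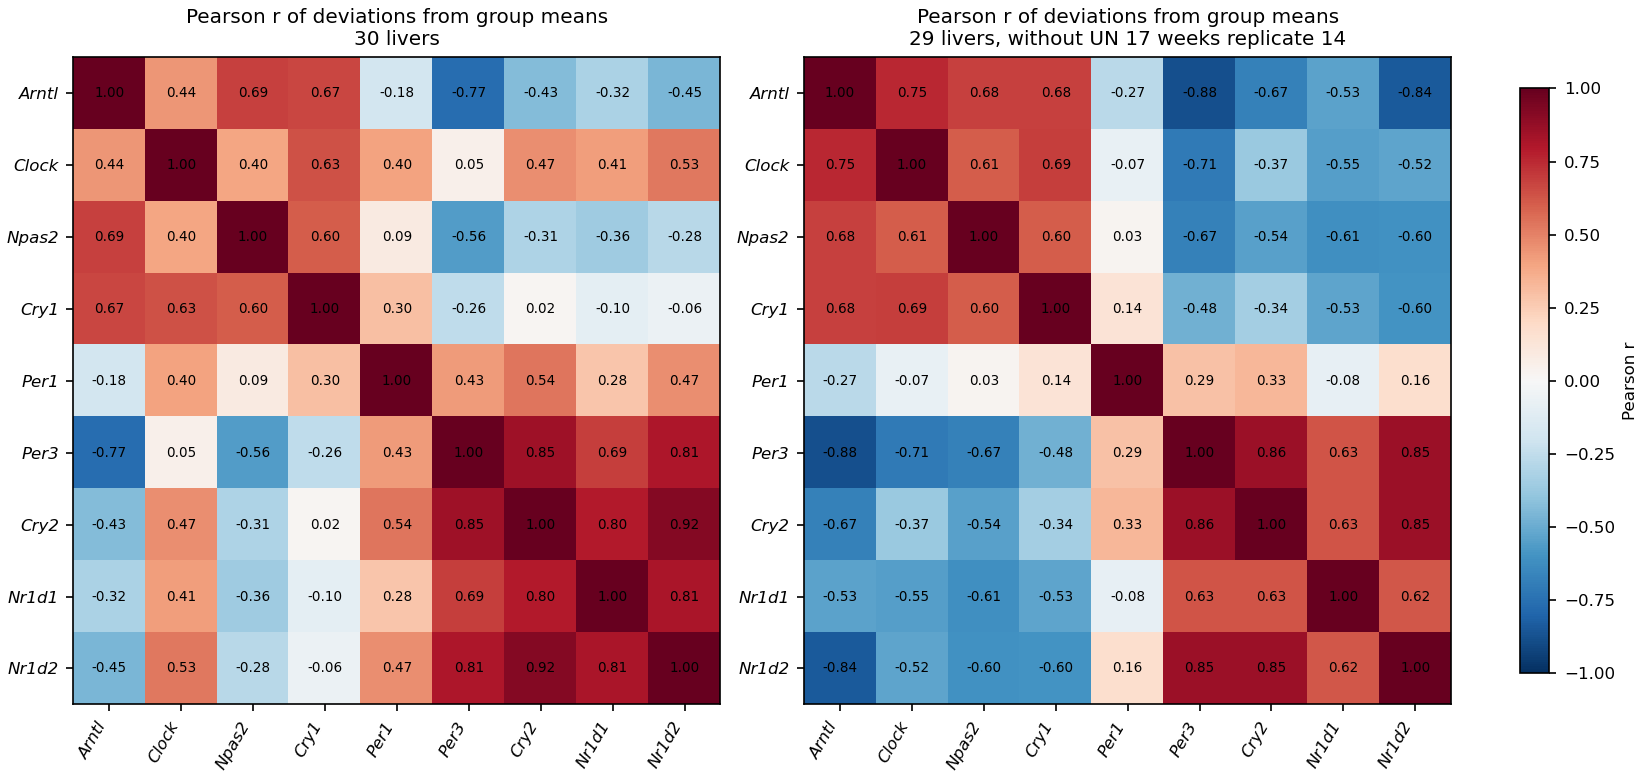
Pearson r between clock genes of the deviations from group means, over 30 livers (left) and over the 29 livers without UN replicate 14 of 17 weeks (right), with both axes listing the genes and colour giving r. Without that array, Arntl, Clock, Npas2 and Cry1 have positive r with each other (0.60 to 0.75) and negative r with Per3, Cry2, Nr1d1 and Nr1d2.

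Over the 16 arrays of 22 weeks, group differences included, the genes with the highest Pearson r with Arntl among 17309 genes of 1 symbol were Abca8b (0.93), Cldn1 (0.93), Itga5 (0.90), Mical2 (0.90) and Irf2bp2 (0.90). Those with the lowest were Wee1 (-0.88), Per3 (-0.88), Dbp (-0.88), Bhlhe41 (-0.86) and Gstt2 (-0.85), so that 1 member and 3 accessory genes stood among the 5 most opposite genes. The signal of Bhlhe41 was low, with a mean over the 30 arrays of 4.27. With group means removed, r was 0.89 for Abca8b and Cldn1, -0.78 for Per3 and -0.86 for Wee1. By rank, Clock stood 29th, Cry1 53rd and Npas2 83rd from the most alike, and Nr1d2 30th, Cry2 505th and Nr1d1 520th from the most opposite. Per1, at r = 0.24 and rank 4881, stood near neither end. The arrays share one normalization, and these ranks are a description.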

How the data were processed

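Total RNA of 30 livers was amplified, labelled and hybridized to Affymetrix MoGene2.1 ST array strips, and signals were summarized in Affymetrix Expression Console. The table deposited by the authors holds log2 signals of 41345 probe sets, from 1.10 to 12.89, with array medians between 4.11 and 4.25. The summarization method and software version are not given in the sources used here. Scans were not analysed here, so background and strip were not examined. The number of arrays limits the precision. A platform annotation named 25341 probe sets (23521 by 1 symbol, 1820 by several) and left 16004 unnamed.

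Moderated linear models (lmFit, eBayes; limma 3.58.1, R 4.3.3) were run on all gene-named probe sets of a cohort, the 4 groups of 22 weeks or of 9 and 17 weeks in 1 fit, with Benjamini-Hochberg adjustment over all of them. The fit was tested on simulated data with known changes. Correlations used Python 3.11.15. Mice were numbered 1 to 30 with no number shared, so nothing was paired. The members and gene lists were chosen with earlier results of these data known. Values per mouse were planned for the 3 clock genes of lowest p in a comparison where none passed. Left out among these were Nr1d2 at 9 weeks and in NN-TU against NN-Veh, and Cry2 at 17 against 9 weeks in NN. Other clock genes were added after their values were seen. Values per mouse were also given for accessory genes of lowest p. Correlations were planned over 9 genes and run over 8, since Per2 had no probe set of its own. Accessory genes that were not analysed here are not reported. Alternatives were the methods' ANOVA without moderation, other sets of samples or probe sets, array weights, renormalization and each array left out. P-values measure the spread between these mice, and litters are not given in the labels.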

Additional observations from a re-analysis of the deposited data

Results flagged for a closer look

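Single arrays that stood apart from the other 3 of their group were looked for in 54 pairs of a clock gene and a group of 4, by the gap to the nearest array divided by the range of the group, with a limit that chance passes in about 1 in 20 groups. In 5 pairs the limit was passed. Nr1d1 (gap over range 0.919) and Clock (0.866) in UN at 17 weeks were both low in replicate 14, at 6.05 against 8.23 to 8.42 and at 6.11 against 8.31 to 8.65. This is the array with the low hepatocyte marker mean, whose part was not tested. Per3 in NN-Veh was high in replicate 16 (0.964), at 5.99 against 5.61 to 5.63, a small gap in a narrow group. Nr1d1 in UN-Veh was high in replicate 26 (0.915), at 8.90 against 8.32 to 8.36. Nr1d2 in NN at 17 weeks was low in replicate 10 (0.851), at 8.66 against 8.94 to 8.99.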

How the results depend on the processing

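The direction of the 12 single-gene differences at an unadjusted p under 0.05 held in the 137 alternatives that moved the difference at all, while the other 144 of 281 could change only its error, and 276 of 281 stayed on the same side of the adjusted threshold. Npas2 passed it at 17 against 9 weeks in UN with all 30 arrays in 1 fit (adjusted p = 0.0326 in limma) and with array weights (0.0323), so that 1 clock gene was called there, and also without NN replicate 2 of 9 weeks (0.0151, the lowest over its alternatives, which reached 0.76). In UN-TU against UN-Veh, 1 gene was called without NN-TU replicate 22 (Arntl, adjusted p = 0.0392 in limma, its alternatives reaching 1.0) or without UN-TU replicate 29 (Npas2). No other alternative called a clock gene. With arrays left out in turn, called genes ranged from 0 to 1 in these 2 comparisons.

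Counts at an unadjusted p under 0.05 were less steady. At 17 weeks the count of 1 became 2 with all 30 arrays and 0 in probe sets above the median signal, where Npas2 was not tested. For UN-Veh against NN-Veh it was 2 with only those groups fitted. For NN-TU against NN-Veh it was 0 under the methods' ANOVA, all 30 arrays, the whole table of probe sets, quantile normalization once more and a common median. For UN-TU against UN-Veh it was 3 with all 30 arrays. For UN-TU against NN-TU it was 0 under those same 5 settings, array weights and only those groups. For the interaction it was 0 under the methods' ANOVA, all 30 arrays and all probe sets. At 17 against 9 weeks in NN it was 0 under the methods' ANOVA, 2 with all 30 arrays, quantile normalization or a common median, and 4 with array weights or only those groups. In UN it was 4 with all 30 arrays and 1 in probe sets above the median signal. The cause of these changes was not tested.

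With each array left out, the unadjusted counts ran from 0 to 2 for UN-Veh against NN-Veh, 0 to 3 for NN-TU against NN-Veh, 3 to 6 for UN-TU against UN-Veh, 0 to 2 for UN-TU against NN-TU, 0 to 4 for the interaction, 0 to 4 for 17 against 9 weeks in NN and 1 to 4 in UN. The count of 5 in UN-TU against UN-Veh became 3 without UN-Veh replicate 26 or UN-TU replicate 27. The alternatives for Wee1 and Usp2 were chosen after seeing the data. At the adjusted threshold, Wee1 stayed called in 21 of 24. It was lost under the methods' ANOVA, all 30 arrays (adjusted p = 0.735 in limma) and only those groups (0.051). Usp2 was lost in 12, among them without UN-Veh replicates 24, 25 or 26 and without any 1 of the 4 UN-TU mice.

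Over the 16 arrays of 22 weeks only, r with Arntl was 0.05 for Per1, against -0.18 over 30, -0.44 for Cry2, no longer past the threshold (adjusted p = 0.242 by permutation), and -0.67 for Nr1d1, now past it (adjusted p = 0.036 by permutation). By Spearman's rho over these 16 arrays, Nr1d1 and Npas2 (adjusted p = 0.115 each by permutation) and Nr1d2 (0.0523) did not pass. With each array left out, r ran from -0.67 to -0.28 for Cry2 and from -0.84 to -0.33 for Nr1d2. Cry2 lost the threshold without any 1 of 13 arrays, all 6 of 9 weeks among them (adjusted p up to 0.16 by permutation), the others being NN replicates 9 and 10 of 17 weeks, NN-TU replicates 20 and 22, UN-Veh replicate 26 and UN-TU replicates 27 and 29. Nr1d2 lost it without any 1 of 5, NN replicates 1, 2 and 3 and UN replicate 6 of 9 weeks and UN-TU replicate 27 (adjusted p = 0.0562 to 0.094 by permutation). No paired analysis was possible because no animal number is shared between groups.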
